A study of Arabidopsis thaliana with 2 samples.

Results

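ZAT12 (AT5G59820), ZAT10 (AT1G27730) and AOX1D (AT1G32350) were chosen by their locus codes as genes of the oxidative stress response. All 3 are among the 13504 genes for which a probe set of that gene alone could be named here. The annotation used does not list 8794 of the 22810 probe sets on the array. A gene without a named probe set may therefore still be on it. RNA of whole csb3 plants and of whole wild-type Col-0 plants, both of the Columbia (Col-0) ecotype and 5 weeks old, had been hybridised to Affymetrix ATH1 arrays, and the values analysed come from 1 array per genotype. Plants of both genotypes were grown under 10 h of light and 14 h of dark at 23 °C and 60% humidity, according to the sample labels. For both genotypes the labels also give 3 days of cold and a light level of 150 to 200 µE. The study's general methods give a range of temperatures and a different humidity and light level. The csb3 mutant (constitutive subtilisin3) has enhanced disease resistance and came from a screen for plants in which the promoter of the tomato subtilase gene P69C drives a GUS reporter without infection. Whether the plants on either array carried that reporter is not stated in the labels. The series text mentions 5 plants, and it is unclear whether these were pooled into each RNA sample. Replicate arrays of either genotype were not analysed here, so the differences are given as values, without tests.

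Reactive oxygen species (ROS) such as hydrogen peroxide are made in chloroplasts, mitochondria, peroxisomes and at the plasma membrane, and plants both remove them with enzymes and read them as signals. ZAT12, listed by RefSeq as RHL41 for its response to high light, and ZAT10, listed as STZ (salt tolerance zinc finger), are C2H2 zinc finger proteins of one small family that act in the nucleus on transcription in response to light stress, cold, salt and oxidative stress. AOX1D is one of the mitochondrial alternative oxidases, which pass electrons from ubiquinol straight to oxygen and so bypass the cytochrome part of the respiratory chain. Transcripts of ZAT12 and of alternative oxidases are widely used as markers of oxidative stress.

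ZAT12 and AOX1D were higher in csb3 plants and ZAT10 was not. The ZAT12 probe set had a signal of 627.3 on the csb3 array, against 107.7 on the Col-0 array. Both signals lie above 50, the level below which signals were set to 50 before any ratio was taken, so that the 5.82-fold difference is a measured one (log2 ratio 2.54). The AOX1D probe set had a signal of 248.5 on the csb3 array, against 8.4 on the Col-0 array. Its Col-0 signal is below that floor, so AOX1D was at least 4.97-fold higher in csb3 (log2 ratio at least 2.31). The ratio of its signals as deposited would be 29.6, a value that rests on a signal too dim to carry it. The ZAT10 probe set had a signal of 538.5 on the csb3 array, against 755.6 on the Col-0 array. It was bright in both genotypes and 1.40-fold lower in csb3 (log2 ratio -0.49), short of 2-fold.

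**Figure D1:**
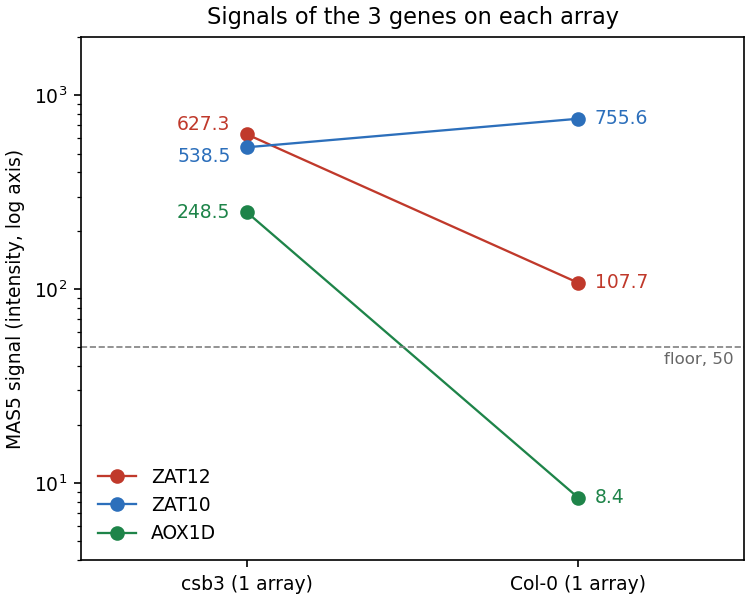
MAS5 signal (intensity, log axis) of ZAT12, ZAT10 and AOX1D on the csb3 array (left) and the Col-0 array (right), 1 point per array and a dashed line at the floor of 50. ZAT12 and AOX1D have signals of 627.3 and 248.5 in csb3, against 107.7 and 8.4 in Col-0, while ZAT10 has 538.5 in csb3 and 755.6 in Col-0.

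How large these ratios are can be set against the spread within the pair of arrays. For 43 genes with several probe sets, all of them at 50 or more on both arrays, the log2 ratios of probe sets of the same gene varied with an SD of 0.61 (86 probe sets). This spread is between probe sets on the same pair of arrays. It does not include the variation between plants, or any error that the probe sets of a gene share, such as that of scaling. The log2 ratio of ZAT12 is 4.14 times that SD. For AOX1D the lower bound is 3.77 times that SD, although the SD was measured on brighter probe sets. The log2 ratio of ZAT10 is -0.80 times that SD, within the spread between probe sets of one gene. The ratios of the zinc finger genes ZAT12 and ZAT10 lie 3.03 log2 units apart, where the SD of such a difference is 0.87. ZAT12 and AOX1D are named here only through the study's list of genes changed in csb3. Their multiples of the SD, and the gap between ZAT12 and ZAT10, are therefore descriptions and not independent evidence of a rise.

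Among all 22810 probe sets, 4.56% were at least 2-fold higher in csb3 and 2.74% at least 2-fold lower, and at 4-fold these shares were 0.886% and 0.263%. ZAT12 and AOX1D are both among the 202 probe sets that were at least 4-fold higher in csb3. There were 87 probe sets with a higher ratio than ZAT12, and 122 a higher one than the bound for AOX1D. ZAT10 had 2483 probe sets (10.9%) with a lower ratio. The names of ZAT12 and AOX1D come from the study's list of genes changed in csb3, since the array annotation used here does not list their probe sets, so their place at the top and their direction are not independent evidence. Of the 219 probe sets named only through that list, 68.5% were at least 2-fold higher in csb3 and 7.76% at least 2-fold lower. ZAT10 is named by the annotation, in which 3.58% of 13433 probe sets of a single gene were at least 2-fold higher and 2.64% at least 2-fold lower.

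**Figure D2:**
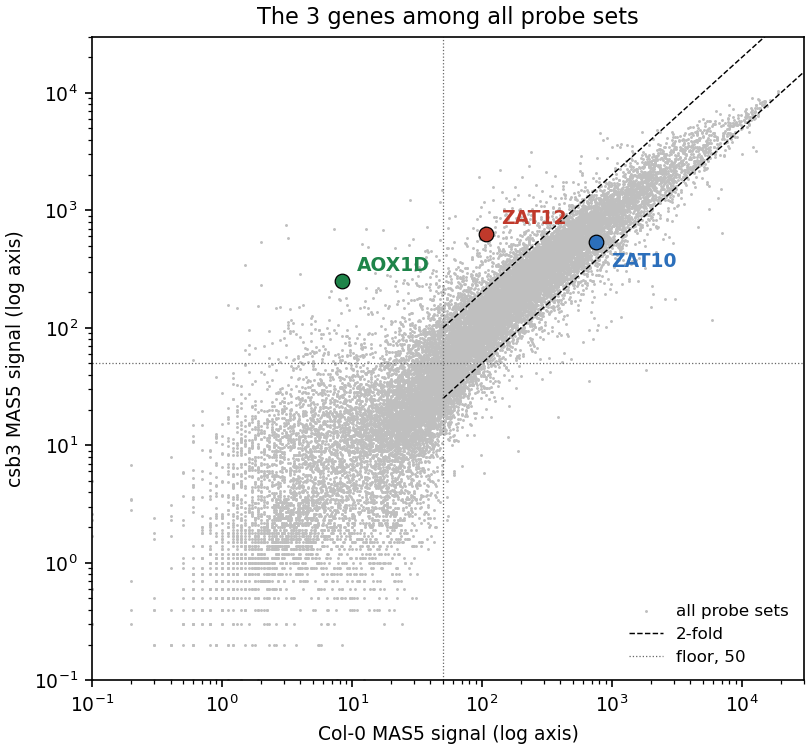
Signal of each of the 22810 probe sets on the csb3 array (vertical log axis) against the Col-0 array (horizontal log axis), with 2-fold lines (dashed) and the floor of 50 (dotted). ZAT12 and AOX1D lie above the 2-fold line at 627.3 and 248.5 in csb3, AOX1D to the left of the floor, and ZAT10 lies between the 2-fold lines.

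Since dim probe sets vary more than bright ones, ZAT12 and ZAT10 were also set beside the 500 probe sets nearest to each in Col-0 signal. The same comparison is not given for AOX1D, because its Col-0 signal is below the floor. Of the 500 nearest ZAT12 (Col-0 signals of 102.1 to 113.6), 3 reached its csb3 signal, and the median csb3 signal was 119.9. ZAT12 was named for its change, so this place is a description only. Of the 500 nearest ZAT10 (682.1 to 837.1 in Col-0), 387 had a csb3 signal at or above its own, with a median of 737.9.

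The genes whose pair of signals was most like that of each of the 3 were found by the distance between log2 signals over the 2 arrays, which says only that the signals are alike. Nearest to ZAT12 was TIN1, a gene induced by tunicamycin, with 629.1 in csb3 and 105.4 in Col-0 (distance 0.03), followed by the cytochrome P450 CYP71B23, with 691.6 in csb3 and 115.4 in Col-0 (0.17), and AT3G47480, with 717.5 in csb3 and 105.5 in Col-0 (0.20). Nearest to ZAT10 were AT5G64850, with 528.8 in csb3 and 739.3 in Col-0 (distance 0.04), MSRB5, a methionine sulfoxide reductase that repairs oxidised methionine, with 553.5 in csb3 and 769.0 in Col-0 (0.05), and AT1G36730, with 555.0 in csb3 and 767.7 in Col-0 (0.05). Nearest to AOX1D were AT1G54010, read by a probe set that may cross-hybridise with similar genes, AT3G11600 and AT2G32190. Their csb3 signals were 249.6, 242.9 and 242.4, and all of them were below 50 in Col-0, so their nearness to AOX1D on that array is set by the floor.

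Of the protein-coding genes that lie next to ZAT12 on chromosome 5, SBT5.4, on one side, had 17.4 in csb3 and 55.7 in Col-0, a bound of at least 1.11-fold lower in csb3. AT5G59830 and AT5G59840, on the other side, had 173.0 and 171.4 in csb3, against 109.9 and 111.0 in Col-0, with log2 ratios of 0.65 and 0.63 that passed 2-fold under spike-in scaling (1.64 and 1.61). On chromosome 1, AT1G32360 beside AOX1D had 175.2 in csb3 and 229.8 in Col-0 (log2 ratio -0.39, and 0.59 under spike-in scaling). No probe set is named here for the other genes within 2 places of the 3 genes.

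The 3 genes were then set beside 7 lists of genes with related roles, which hold 89 genes with ZAT12, ZAT10 and AOX1D among them. A named probe set was found for 24 of the 89. Besides the 3 genes themselves, 21 had one, of which 3 were at least 2-fold higher in csb3, 2 at least 2-fold lower, 13 neither, and 3 below 50 on both arrays. Of the 18 of these named by the annotation, 1 was higher and 2 were lower, beside the 3.58% and 2.64% over the annotation. The remaining 3, named through the study's list of changed genes, include the other 2 that were higher. Scaling the arrays on spike-in controls adds 0.98 to every log2 ratio of the genes with both signals at 50 or more, which turns small negative ratios positive and brings some ratios past 2-fold and others short of it. Among the 24 genes it gave 11 higher and none lower, against 5 higher and 2 lower with the arrays as deposited. Over all 22810 probe sets it gave 7671 higher and 80 lower, against 1041 and 624 as deposited. The counts among the 24 thus move with a shift of the whole array.

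In the zinc finger family of ZAT12 and ZAT10 (C1-2i), 4 of 11 listed genes have a named probe set. ZAT5 had a signal of 478.1 in csb3 and 578.9 in Col-0, a log2 ratio of -0.28, close to that of ZAT10. Both ZAT5 and ZAT10 turned to higher in csb3 under spike-in scaling. ZAT18 had 64.0 in csb3 and 4.9 in Col-0, which gives a bound of at least 1.28-fold higher. At the floor of 50 and with the arrays as deposited, ZAT12 reached 2-fold and the other measured genes of this family did not. Of the 4, only ZAT12 is named through the study's list of changed genes, so this contrast is a description only. ZAT18 passed 2-fold with a floor of 20 (at least 3.20-fold) and under spike-in scaling (log2 ratio at least 1.34).

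AOX1D is the single alternative oxidase of 6 listed that has a named probe set, so its ratio cannot be set beside that of AOX1A, the usual marker of mitochondrial stress. The alternative NAD(P)H dehydrogenases, which feed electrons into the same ubiquinone pool without pumping protons, have 5 named probe sets of 7 listed genes. NDB4 was below 50 on both arrays and has no ratio. None of the others reached 2-fold with the arrays as deposited, beside 3.58% higher and 2.64% lower over the annotation. NDB2, an external NADH dehydrogenase of the inner mitochondrial membrane, had 379.3 in csb3 and 207.3 in Col-0, a log2 ratio of 0.87 (1.85 under spike-in scaling). NDB1, NDB3 and NDC1 had log2 ratios between -0.14 and -0.03, and these turned positive under spike-in scaling.

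Among 8 genes known from mitochondrial stress, 4 have a named probe set. OM66, an AAA-type ATPase of the outer mitochondrial membrane (BCS1 in RefSeq), had 369.4 in csb3 and 105.1 in Col-0, and was 3.51-fold higher. UGT74E2, a glucosyltransferase of the auxin indole-3-butyric acid that is induced by hydrogen peroxide, had 96.0 in csb3 and 7.3 in Col-0, a bound of at least 1.92-fold higher that passed 2-fold with a floor of 20 (at least 4.80-fold) and under spike-in scaling (log2 ratio at least 1.92). Both are named through the study's list of changed genes. UPOX, a mitochondrial protein named for its induction by oxidative stress and named by the annotation, had 81.8 in csb3 and 111.6 in Col-0 (log2 ratio -0.45, and positive under spike-in scaling). AT12CYS-2 was below 50 on both arrays.

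Of 25 genes listed for the removal of ROS, most of them enzymes, 4 have a named probe set, all in the annotation. TAPX, the ascorbate peroxidase of the thylakoid membrane, had 685.1 in csb3 and 1521 in Col-0, and was 2.22-fold lower in csb3, although spike-in scaling left it at a log2 ratio of -0.17. SAPX, the stromal form of the same enzyme, had 682.7 in csb3 and 527.6 in Col-0 (log2 ratio 0.37, and 1.35 under spike-in scaling). The glutathione reductases were GR1, with 1970 in csb3 and 1454 in Col-0 (log2 ratio 0.44, and 1.42 under spike-in scaling), and the organellar GR2, with 1224 in csb3 and 1753 in Col-0 (log2 ratio -0.52, and positive under spike-in scaling). APX1, whose expression under oxidative stress is known to need ZAT12, has no named probe set here.

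Of 23 genes of ROS signalling and response, 4 have a named probe set. HSP17.6A, a cytosolic small heat shock protein, had 416.1 in csb3 and 53.1 in Col-0, 7.84-fold higher, and is named through the study's list. Its Col-0 signal lies close to the floor of 50, and with a floor of 100 it was at least 4.16-fold higher. CML37, a calmodulin-like protein named by the annotation, had 120.3 in csb3 and 17.2 in Col-0, at least 2.41-fold higher, but at least 1.20-fold with a floor of 100. Its relative CML38 had 61.5 in csb3 and 65.8 in Col-0, and GSTU25, a glutathione transferase, was below 50 on both arrays. Of 9 genes of the cold and drought response, in which ZAT12 and ZAT10 also act, COR15A, a cold-induced protein of the chloroplast, had 250.3 in csb3 and 810.6 in Col-0, 3.24-fold lower (log2 ratio -0.71, short of 2-fold, under spike-in scaling). The dehydrin COR47 had 1323 in csb3 and 1006 in Col-0 (log2 ratio 0.40, and 1.38 under spike-in scaling), and the others of the 9 have no named probe set.

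**Figure D3:**
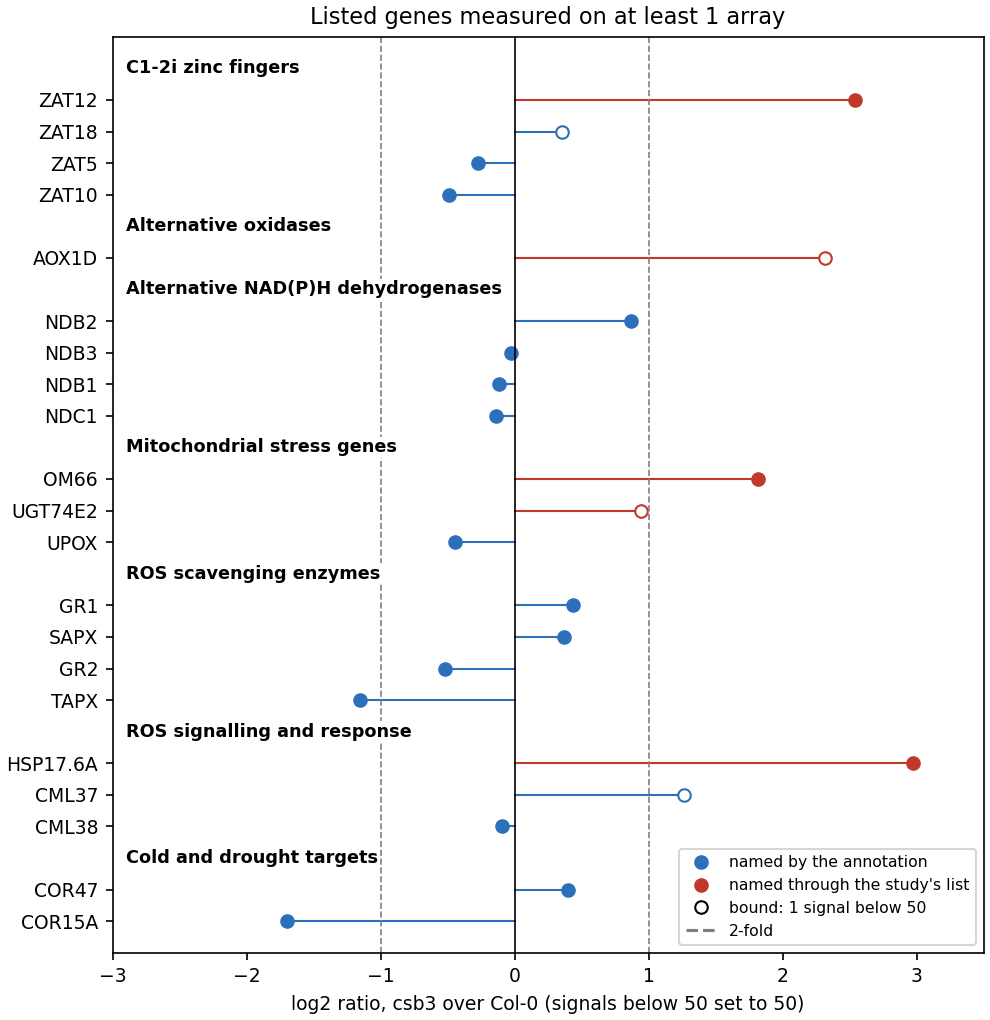
Log2 ratio of csb3 over Col-0 for the 21 listed genes measured on at least 1 array, grouped by role, with dashed lines at 2-fold. Filled points have both signals at 50 or more, open points are bounds, and red points are named through the study's list of changed genes: ZAT12 (2.54), AOX1D (2.31), HSP17.6A (2.97) and OM66 (1.81) stand beyond 2-fold among these, while ZAT10 (-0.49) lies near ZAT5 (-0.28).

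How the arrays differ as a whole bears on these ratios. The median signal was 88.3 on the csb3 array and 80.3 on the Col-0 array, and 58.8% and 59.3% of probe sets were at 50 or more. All 18 spike-in control probe sets, which read bacterial and phage sequences that the array's protocol adds in fixed amounts, were lower on the csb3 array, with a median log2 ratio of -0.98. Scaling on them would raise every csb3 signal, and ZAT10 would then be 1.41-fold higher in csb3 in place of 1.40-fold lower. The 3′ to 5′ ratio, a sign of RNA quality, was 4.91 in csb3 and 2.06 in Col-0 for actin, 1.40 in csb3 and 1.29 in Col-0 for GAPDH, and 1.98 in csb3 and 2.66 in Col-0 for ubiquitin. The control for 25S rRNA had 17.3 in csb3 and 384.4 in Col-0. Of the listed markers of plant organs, 1 of 5 for leaf, 3 of 6 for root, 0 of 5 for flower and 1 of 4 for seed have a named probe set. Organ content was thus read by few genes, and flowers by none. The leaf gene RCA had 7432 in csb3 and 12691 in Col-0. The root markers EXPA7 and EXPA18 and the seed marker PAP85 were below 50 on both arrays. PYK10, a beta-glucosidase abundant in roots, had 1220 in csb3 and 27.8 in Col-0. Fewer cells of a type and less RNA per cell cannot be told apart in whole plants, and the part of organ content, RNA quality and the rRNA difference in the ratios of ZAT12, ZAT10 and AOX1D was not tested.

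ZAT12 kept a log2 ratio between 2.24 and 3.52 under the main setting and 9 other floors and scalings. AOX1D ranged from 1.31 to 4.89, its bound moving with the floor, and was above 2-fold under each of them. ZAT10 ranged from -0.72 to 0.49 and stayed within 2-fold under each of them.

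**Figure D4:**
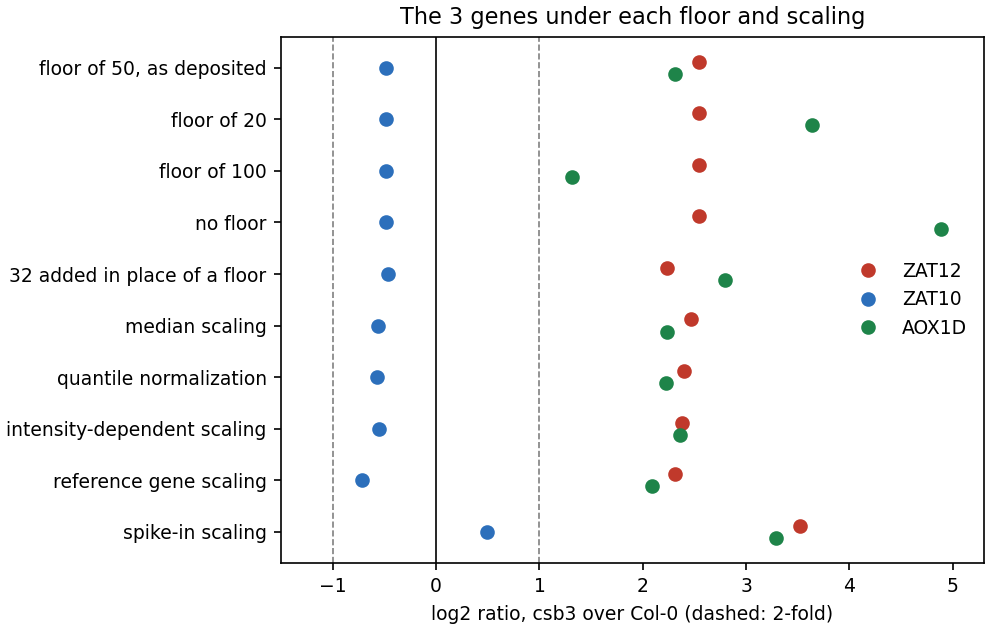
Log2 ratio of csb3 over Col-0 of ZAT12, ZAT10 and AOX1D under the main setting (top) and 9 other floors and scalings, with dashed lines at 2-fold. ZAT12 lies between 2.24 and 3.52, AOX1D between 1.31 and 4.89, and ZAT10 between -0.72 and 0.49, above 0 with spike-in scaling only.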

How the data were processed

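Per the submitters' processing notes, the authors computed the deposited intensity signals with MAS5, 1 value per probe set on a linear scale. Trimmed of 2% at either end, the mean signal is 250.0 on each array, the target to which the arrays had been scaled. The methods' SAM on triplicates was not run, since the values are of 1 array per genotype, a number that limits the precision.

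A floor of 50 was put under the signals, and log2 ratios of csb3 over Col-0 were computed with Python 3.11.15, NumPy 2.4.6 and pandas 2.3.3 (statsmodels 0.14.6 for intensity-dependent scaling, matplotlib 3.10.9 for plots). A ratio with 1 signal below 50 is a bound, and none is given with both below. The rule was run on simulated data, with 4-fold changes planted without noise on probe sets bright in Col-0. That setting made their recovery certain, and it does not cover Col-0 signals as low as those of ZAT12 and AOX1D. The annotation gives 1 gene for 13513 probe sets (13433 with a RefSeq locus in TAIR10.1) and several for 503, and 219 others were named by gene codes in the study's list of changed genes. A gene with several probe sets is given by the brightest. Named are the 3 genes, members of the lists, and the 3 genes nearest to each. Neighbouring genes, and the families under other observations, were chosen after their values were seen. The 3 genes and the lists were chosen with earlier results of these data known. No sequences were used here.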

Additional observations from a re-analysis of the deposited data

How the results depend on the processing

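Spike-in scaling turned ZAT10 to a log2 ratio of 0.49 and moved ZAT12 to 3.52 and AOX1D to at least 3.29. It shifts the median log2 ratio by 0.98, and reference gene scaling by -0.22. The only reference genes were TIP41 and SAND, with log2 ratios of 0.08 and 0.37 on the arrays as deposited. AOX1D was at least 1.31 with a floor of 100, at least 3.64 with a floor of 20 and 4.89 with no floor. The other 8 alternatives left ZAT10, and the other 8 left ZAT12, within 1 SD (0.61) of the main value and on the same side of 2-fold, as did 5 for AOX1D. Probe sets at least 2-fold higher and lower in csb3, 1041 and 624, became 2696 and 3552 with no floor, 660 and 1174 with reference gene scaling, 7671 and 80 with spike-in scaling, and 631 and 371 among probe sets of 1 gene, where fewer are counted. With a floor of 20, 1291 were lower. Of the listed genes, 5 were higher and 2 lower. These became 11 and 0 with spike-in scaling, and 1 was higher with names from the annotation alone. No paired analysis was possible because there is only 1 array of either genotype. AOX1D is limited by its dim Col-0 signal, and ZAT10 by a ratio within the spread between probe sets of one gene.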

Other observations

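Other genes that handle ROS or the thiol state of proteins, found by gene symbol after the signals had been seen, were described by their values. Beside the counts below, 4.56% of all probe sets and 68.5% of those named through the study's list of changed genes were at least 2-fold higher in csb3. Of 16 thioredoxins found, 4 have a named probe set and 1 reached 2-fold with the arrays as deposited. TRX5, the cytosolic thioredoxin h5 that acts on the salicylic acid co-activator NPR1, had 2508 in csb3 and 566.2 in Col-0, 4.43-fold higher, and is named through the study's list of changed genes. ATHM2 and TRXF2 had 2663 and 950.5 in csb3, against 5108 and 1575 in Col-0. Their log2 ratios of -0.94 and -0.73 turned positive under spike-in scaling. At its lowest over the scalings ATHM2 was at -1.17, past 2-fold lower. With the arrays as deposited TY1 went the other way, with 95.4 in csb3 and 72.8 in Col-0 (log2 ratio 0.39). It was at 1.37, past 2-fold, under spike-in scaling, and both of its signals lie below a floor of 100.

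Of 8 glutaredoxins, 6 have a named probe set and 2 reached 2-fold with the arrays as deposited. GRXS13, named through the study's list, had 449.4 in csb3 and 36.5 in Col-0, at least 8.99-fold higher. GRX480, a glutaredoxin that binds TGA transcription factors and is named by the annotation, had 258.4 in csb3 and 124.9 in Col-0, 2.07-fold higher, and its log2 ratio was 0.82, short of 2-fold, with reference gene scaling. GRXC1 and GRXC2 had log2 ratios of 0.55 and 0.27, and passed 2-fold under spike-in scaling (1.53 and 1.25). ROXY1 had 49.0 in csb3 and 55.6 in Col-0, and ROXY2 was below 50 on both arrays. Of the enzymes that recycle ascorbate, the monodehydroascorbate reductase AT3G09940 (MDHAR in RefSeq) is named through the study's list. It had 113.2 in csb3 and 5.2 in Col-0, at least 2.26-fold higher. This bound fell short of 2-fold with reference gene scaling (log2 ratio 0.95) and with a floor of 100 (1.13-fold). ATMDAR2 had 907.5 in csb3 and 623.4 in Col-0 (log2 ratio 0.54, and 1.52 under spike-in scaling).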
